A study of Homo sapiens with 6 samples.

Results

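miR-21, miR-31 and miR-95 are microRNAs (miRNAs) that are raised in colorectal tumours and are described there as oncogenic. Every listed arm of the 3 miRNAs was taken by its name, which gave 6 mature entries of the 2575 listed: hsa-miR-21-5p, hsa-miR-21-3p, hsa-miR-31-5p, hsa-miR-31-3p, hsa-miR-95-3p and hsa-miR-95-5p, written below without the prefix for human. Small RNA had been sequenced from exosomes, the small vesicles that cells shed, collected from the medium of HCT116, a human colorectal cancer line at passage 16 to 19. In the 3 libraries titled ETBF the cells had been cultured for 6 h with enterotoxigenic Bacteroides fragilis, a gut anaerobe that makes a toxin and is linked to colitis, at a multiplicity of infection of 500. For the 3 titled untreated, cells received the bacterial medium without the bacterium. The names of the deposited files give the opposite group in 6 of 6 libraries. Groups here follow the sample titles. Should the file names hold the true groups, each direction below turns round, with the same sizes, errors and p-values.

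A miRNA gene is transcribed into a hairpin, and Drosha and Dicer cut from it a short duplex whose strands are the 5p and 3p arms. One arm is usually loaded into an Argonaute protein, where bases 2 to 8, the seed, pair with target messages and lower their output, while the other arm is mostly degraded. miR-21-5p represses PDCD4, a brake on translation and invasion. miR-31-5p represses RASA1, which restrains RAS, and HIF1AN, which restrains hypoxia signalling. miR-95-3p is reported to repress the sorting nexin SNX1 in colorectal cancer cells.

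RefSeq's table, on build GRCh38.p14, held the mature sequences of 4 of the 6 arms, and these are shown because the arms are the entries counted and the seed sets which messages an arm can pair with. Capitals mark the seed.
miR-21-5p: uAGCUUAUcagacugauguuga
miR-31-5p: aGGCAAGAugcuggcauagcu
miR-95-3p: uUCAACGGguauuuauugagca
miR-95-5p: uCAAUAAAugucuguugaauu
The 4 seeds differ, so the members form no seed family. Each is 21 or 22 bases long and comes from 1 locus. Among 2370 mature names in the table, miR-590-5p was the one other miRNA with the seed of miR-21-5p, and none shared the seeds of miR-31-5p, miR-95-3p or miR-95-5p. miR-590-5p had 0 counts in 6 of 6 libraries, so no reads of a seed mate were counted beside those of miR-21-5p. The miR-95 hairpin is shown with both arms in capitals because reads of one of its arms alone were counted.
MIR95 hairpin: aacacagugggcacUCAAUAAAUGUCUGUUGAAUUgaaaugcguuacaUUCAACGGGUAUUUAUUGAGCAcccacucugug

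In RefSeq on GRCh38.p14, miR-21-5p lies at chr17:59841273-59841294 on the plus strand and miR-31-5p at chr9:21512158-21512178 on the minus strand. The submitters' notes name GRCh37.p5, so these positions are RefSeq's and are not coordinates of the deposited counts. In GENCODE release 29, also on GRCh38, MIR21 lies in VMP1, an autophagy gene, within an exon of a retained-intron transcript. MIR31 lies in an intron of its long non-coding host MIR31HG. Both are on the strand of the host gene.

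Libraries held 200207 to 417321 counts, and the floor of 3 counts corresponds to 8.29 to 14.6 CPM (counts relative to a library size scaled by TMM). Entries whose sequences are known to overlap structural RNAs, here miR-7641, miR-6087 and miR-1246, took 16.1% to 28.3% of the titled untreated and 0.531% to 0.927% of the titled ETBF counts, and miR-148a-3p took 26.3% to 38.2% and 33.1% to 51.1%. Of 7 epithelial markers, 7 were detected in every library, with a summed share of 2.63% to 2.97% and 1.77% to 3.04%. Markers of muscle, liver and brain (2.60% to 2.90% and 1.94% to 2.84%), of stroma and endothelium (1.05% to 1.25% and 0.790% to 1.21%) and of blood cells (0.0712% to 0.0724% and 0.0527% to 0.0807%) were also present. Of these 25 markers none was at 0 over the 6 libraries, 21 had enough counts to be tested between groups, and 1 of those 21 passed, miR-375, against 14.4% of all tested entries. Their part in the results below was not tested.

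The 5 detected arms ran from a mean of 46.9 CPM for miR-31-3p to 89736 CPM for miR-21-5p over the 6 libraries, and miR-95-3p was the one that passed the test between the groups. Testing by edgeR's quasi-likelihood method with Benjamini-Hochberg adjustment over the 195 entries with enough counts called 28 at an adjusted p under 0.05, a background of 14.4%. In the titled ETBF group 21 of them were higher (10.8%) and 7 lower (3.59%). With upper-quartile scaling the split was 36 higher and 6 lower. Of the 6 members, 5 had enough counts to be tested and 1 of those 5 was called, miR-95-3p, higher in the titled ETBF group. As miR-95-5p had no counts, it could not enter the fit. The groups did not overlap for 2 of the 5, miR-95-3p and miR-31-3p, against 39.0% of all tested entries.

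**Figure D1:**
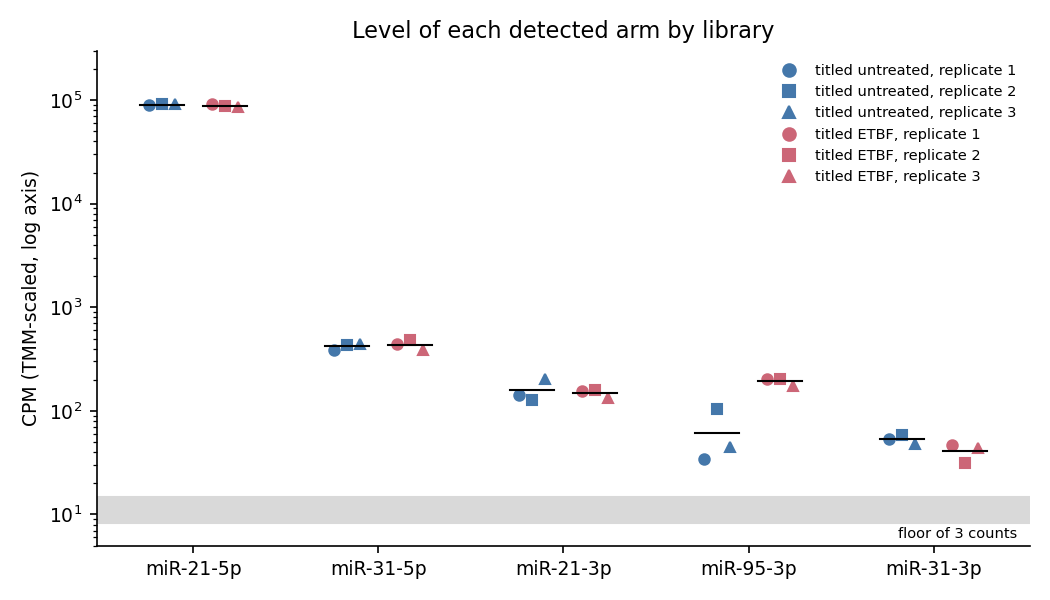
CPM of the 5 detected arms on a log axis, with 1 point per library, replicate numbers by symbol, group means as lines and the range of the floor of 3 counts in grey. The titled ETBF libraries of miR-95-3p sit between 173 and 203 CPM, above the titled untreated ones at 34.1 to 105 CPM, and the groups of miR-21-5p, miR-31-5p and miR-21-3p overlap.

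miR-21-5p was the main member by far, at place 3 in the abundance order of each titled untreated library and place 2 in each titled ETBF library. It held 18326, 33349 and 28416 counts in titled untreated replicates 1, 2 and 3, which is 89155, 92109.5 and 91003 CPM. In titled ETBF replicates 1, 2 and 3 it held 27458, 19397 and 27823 counts, or 92470.3, 87505 and 86175 CPM. The groups overlapped, and the highest and the lowest library were both titled ETBF. Means were 90756 ± 1493 and 88717 ± 3318 CPM (SD, n = 3), and the log2 fold change was -0.03, with a standard error (SE) of 0.12 (edgeR, adjusted p = 0.851). The 95% interval of the fold ran from 0.807 to 1.18, so folds within that range cannot be told from none here. Its log2 fold change was 98th in order of the 195 tested, the median entry itself. The sign was positive with upper-quartile scaling, at 0.03, and with the entries overlapping structural RNAs left out, at 0.02.

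Replicates of miR-21-5p lay close together after scaling. The coefficient of variation (CV) was 1.64% in the titled untreated and 3.74% in the titled ETBF libraries, against 0.612% and 0.634% from counting alone. The root mean square of the CVs of both groups was 2.89%. That was below each of the 20 tested entries nearest to it in mean CPM, which ran from 4.76% to 38.3%. As miR-21-5p stood at place 2 in mean CPM, these 20 span 387720 to 5786 CPM and are not all of like level. These are spreads of scaled values, given as a description.

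As a share of all counts, which needs no scaling, miR-21-5p took 9.15%, 9.04% and 9.68% of the titled untreated libraries. It took 10.96%, 8.74% and 6.67% of the titled ETBF libraries 1, 2 and 3, so the spread lay in that group. The exact 95% interval of the last share was 6.59% to 6.74%, which covers counting error only, as do the other intervals of shares and the floors. Means were 9.29% ± 0.344 and 8.79% ± 2.15 (SD, n = 3, exact permutation test, two-sided, p = 0.7, adjusted p = 0.875 over 5 arms; 0.1 is the smallest p that 3 against 3 allows). Without titled ETBF replicate 3 the difference of -0.502 percentage points became 0.559. In that library miR-148a-3p took 51.1% of the counts.

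The share of miR-21-5p depended on what it was divided by. Without the entries that overlap structural RNAs it was 11.8% ± 0.995 and 8.85% ± 2.18 (SD, n = 3, exact permutation p = 0.2). When miR-148a-3p was left out of the total too, a choice made after the data were seen, it was 20.1%, 19.8% and 20.2% in the titled untreated and 16.6%, 15.4% and 13.8% in the titled ETBF libraries. On that last denominator the groups did not overlap, at 20.02% ± 0.223 and 15.3% ± 1.42 (SD, n = 3, exact permutation p = 0.1). Separation there was not particular to miR-21-5p. The groups were also apart for miR-31-5p and miR-31-3p, both lower in titled ETBF, and for miR-95-3p, which was higher. For miR-21-3p they overlapped. How many of all tested entries are apart on this denominator was not computed, so the separation has no background share beside it. On the same denominator miR-7-5p, a repressor of EGFR, took 3.76% ± 0.164 and 12.9% ± 0.705 (SD, n = 3, exact permutation p = 0.1). How far one share moved the other was not tested.

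**Figure D2:**
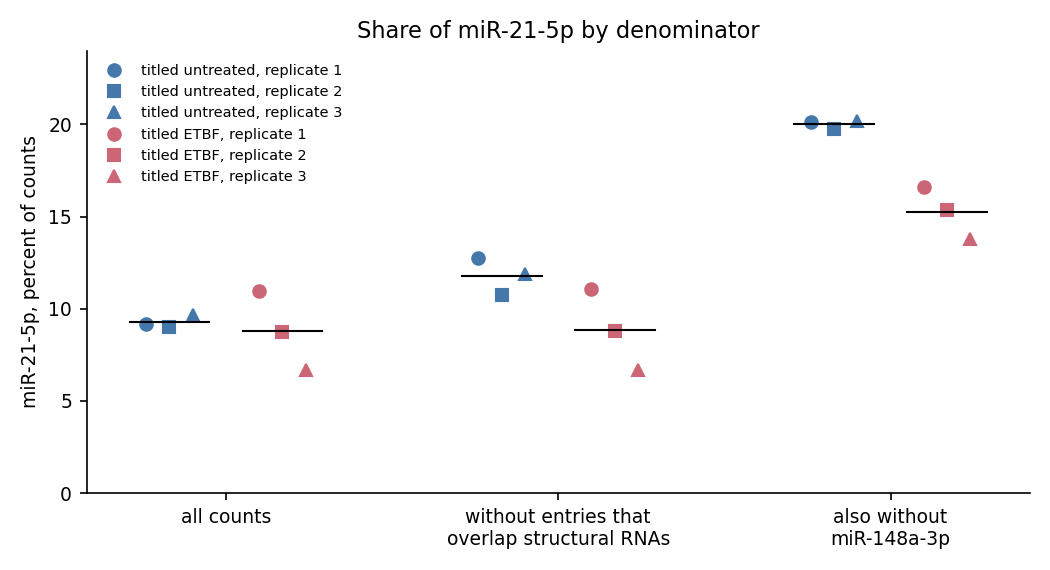
Percent of counts taken by miR-21-5p in each library under 3 denominators, with replicates by symbol and group means as lines. The groups overlap when all counts are the total and are apart when miR-148a-3p and the entries overlapping structural RNAs are left out, at 19.8% to 20.2% and 13.8% to 16.6%.

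miR-21-3p, the arm that is mostly discarded, was found at a small part of the level of miR-21-5p. Its counts were 29, 46 and 64 in titled untreated replicates 1, 2 and 3 and 46, 35 and 43 in titled ETBF replicates 1, 2 and 3. In CPM that is 141, 127 and 205 against 155, 158 and 133, with the highest value in titled untreated replicate 3. The groups overlapped, at means of 158 ± 41.5 and 149 ± 13.5 CPM (SD, n = 3). The log2 fold change was -0.10 with an SE of 0.22 (edgeR, adjusted p = 0.768, 95% interval of the fold 0.662 to 1.32), and it was 0.10 without titled untreated replicate 3.

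The balance of the miR-21 arms differed between the groups by less than the spread. Over all libraries, 263 of the reads of both arms were 3p against 154769 of 5p, a 3p share of 0.170% (exact 95% interval 0.150% to 0.191%). There were 632, 725 and 444 reads of 5p for each of 3p in titled untreated replicates 1, 2 and 3 and 597, 554 and 647 in titled ETBF replicates 1, 2 and 3. The lowest ratio was that of titled untreated replicate 3. Mean log2 ratios were 9.18 ± 0.36 and 9.21 ± 0.11 (SD, n = 3, difference 0.02, exact permutation p = 0.9, adjusted p = 0.9 over 5 ratios). Counting alone gives an SD of 0.22 and 0.23.

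**Figure D3:**
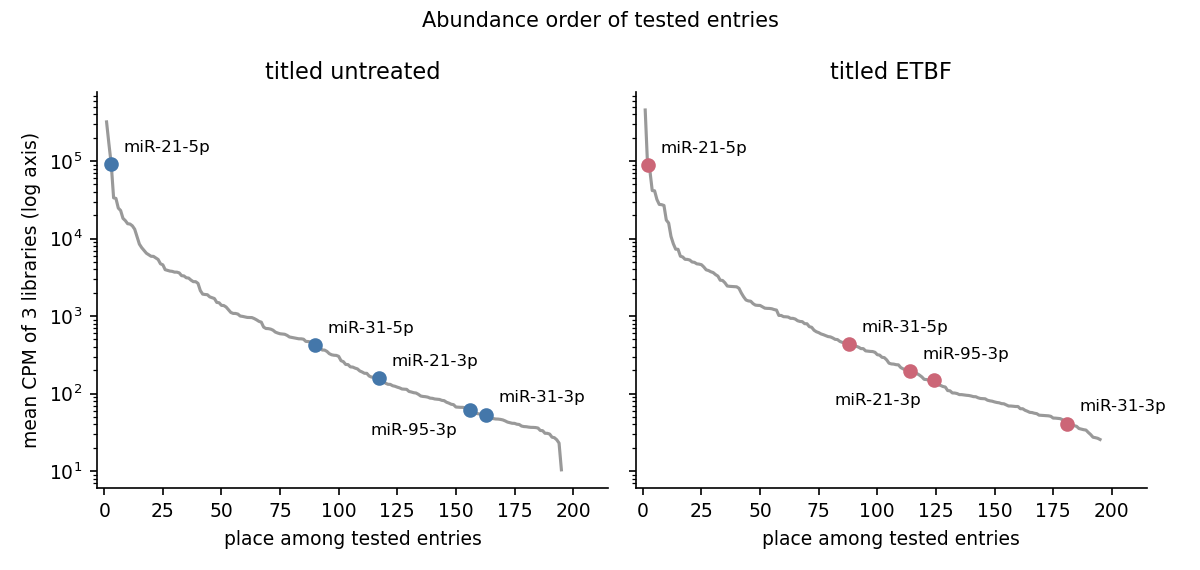
Mean CPM on a log axis against place in the abundance order of the 195 tested entries, for each group, with the 5 detected arms marked. miR-21-5p stands near the top in both groups, and miR-95-3p lies below miR-21-3p in the titled untreated group and above it in the titled ETBF group.

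miR-31-5p stood in the middle of the tested entries, at place 82 to 94 in the abundance order of single libraries. It held 79, 157 and 137 counts in titled untreated replicates 1, 2 and 3, or 384, 434 and 439 CPM. In titled ETBF replicates 1, 2 and 3 it held 130, 107 and 125, or 438, 483 and 387 CPM. The lowest library was titled untreated and the highest titled ETBF, but the ranges overlapped. Means of 419 ± 30.0 and 436 ± 47.8 CPM (SD, n = 3) gave a log2 fold change of 0.04 with an SE of 0.12 (edgeR, adjusted p = 0.816, 95% interval of the fold 0.846 to 1.25). With library size alone as the scaling it was -0.00455.

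Replicate libraries of miR-31-5p differed by about as much as counting alone gives, with CVs of 7.17% and 10.97% against 8.97% and 9.10%. As a share of counts it took 0.0429% ± 0.00363 and 0.0434% ± 0.0118 (SD, n = 3, exact permutation p = 1). With the entries overlapping structural RNAs left out of the total, the means were 0.0543% and 0.0437% (exact permutation p = 0.2). Those with miR-148a-3p left out as well were 0.0924% and 0.0752% (exact permutation p = 0.1).

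miR-31-3p was the least abundant detected arm over all libraries. Titled untreated replicates 1, 2 and 3 held 11, 21 and 15 counts and titled ETBF replicates 1, 2 and 3 held 14, 7 and 14. These are 53.5, 58.0 and 48.0 CPM against 47.1, 31.6 and 43.4 CPM, so that each titled ETBF library was below each titled untreated one. The nearest pair lay at 47.1 and 48.0 CPM. The log2 fold change of -0.36 with an SE of 0.25 did not pass (edgeR, adjusted p = 0.441, 95% interval of the fold 0.522 to 1.16). Its value ran from -0.50 without titled ETBF replicate 1 to -0.20 without titled ETBF replicate 2, and it was negative in 17 of 17 settings. As a share of counts miR-31-3p took 0.00543% ± 0.000295 and 0.00403% ± 0.00135 (SD, n = 3, exact permutation p = 0.3, adjusted p = 0.75), and on that measure titled ETBF replicate 1 lay within the titled untreated range. The difference of -0.0014 percentage points became -0.00218 without that library. With the entries overlapping structural RNAs left out of the total the groups did not overlap, at 0.00691% ± 0.000702 and 0.00406% ± 0.00137 (SD, n = 3, exact permutation p = 0.1), nor did they with miR-148a-3p left out as well, at 0.0117% ± 0.00095 and 0.00699% ± 0.00147 (exact permutation p = 0.1).

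The arms of miR-31 were less unequal than those of miR-21. The 3p arm made up 82 reads against 735 of 5p, a share of 10.04% (exact 95% interval 8.06% to 12.3%). For each 3p read there were 7.18, 7.48 and 9.13 reads of 5p in titled untreated replicates 1, 2 and 3 and 9.29, 15.3 and 8.93 in titled ETBF replicates 1, 2 and 3. The highest ratio rests on 7 reads of 3p. Mean log2 ratios were 2.94 ± 0.19 and 3.37 ± 0.40 (SD, n = 3, difference 0.44, exact permutation p = 0.2, adjusted p = 0.333), and counting alone gives SDs of 0.40 and 0.46. Without titled ETBF replicate 2 the difference was 0.20.

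In the titled ETBF group miR-95-3p was 2.91-fold higher. It held 7, 38 and 14 counts in titled untreated replicates 1, 2 and 3, or 34.1, 105 and 44.8 CPM. In titled ETBF replicates 1, 2 and 3 it held 60, 45 and 56 counts, or 202, 203 and 173 CPM. All titled ETBF libraries were above all titled untreated ones, and titled untreated replicate 2 stood apart from the other two of its group. Means were 61.3 ± 38.2 and 193 ± 16.8 CPM (SD, n = 3), and the log2 fold change was 1.54 with an SE of 0.33 (edgeR, adjusted p = 0.0157). The 95% interval of the fold was 1.73 to 4.88, and the entry was 15th in order of p among the 195. As a share of counts it went from 0.00619% ± 0.00362 to 0.0192% ± 0.00535 (SD, n = 3, exact permutation p = 0.1, adjusted p = 0.5), with groups that did not overlap on that measure either. Without the entries overlapping structural RNAs it was 0.00767% ± 0.00402 and 0.0194% ± 0.00542 (SD, n = 3, exact permutation p = 0.1). The groups then lay close, at 0.0123% in titled untreated replicate 2 and 0.0135% in titled ETBF replicate 3. With miR-148a-3p left out as well, it was 0.0134% ± 0.008 and 0.0333% ± 0.00477 (SD, n = 3, exact permutation p = 0.1).

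**Figure D4:**
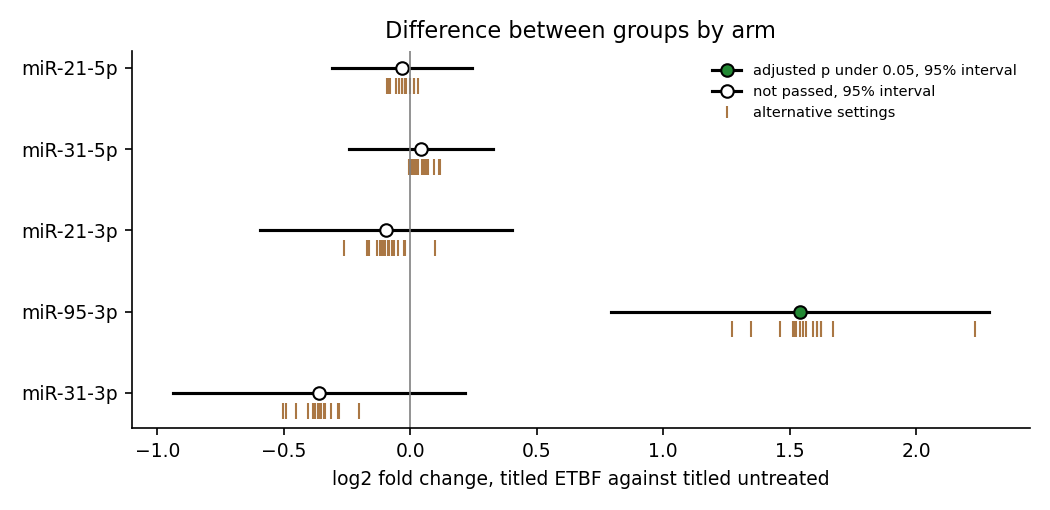
Log2 fold change of each detected arm, titled ETBF against titled untreated, with its 95% interval, a filled point where the adjusted p was under 0.05, and ticks for the 16 alternative settings. miR-95-3p lies at 1.54 with settings from 1.27 to 2.23, and the intervals of the other 4 arms include 0.

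Single libraries set the size of the miR-95-3p difference but not its call. The log2 fold change was 2.23 without titled untreated replicate 2 (edgeR, adjusted p = 0.000511), a fold more than 1.5 times the one with all libraries. Leaving out titled untreated replicate 1 gave 1.35, and leaving out replicate 3 of that group gave 1.27. Over all 17 settings, including the main one, it passed in 17. The highest adjusted p was 0.0425, by edgeR without titled ETBF replicate 3. The lowest, 2.24e-09, came from edgeR with no low-count filter, over 717 entries. Next lowest was 5.05e-05, by edgeR with library size only. The CV was 62.3% in the titled untreated libraries, against 22.5% from counting alone, and 8.71% in the titled ETBF libraries, against 13.7%. The root mean square of the CVs of both groups was 44.5%. That was above each of the 20 tested entries nearest in mean CPM over the 6 libraries, for which the median was 19.7%. In the titled untreated group miR-95-3p was lower than that mean, at 61.3 CPM. The 20 entries nearest to miR-31-3p, at a mean of 46.9 CPM, had a median of 29.2% and reached 57.4%.

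In order of level, miR-95-3p moved past miR-21-3p between the groups. In the titled untreated group the mean levels ran miR-21-5p, miR-31-5p, miR-21-3p, miR-95-3p and miR-31-3p, at places 3, 90, 117, 156 and 163 among all listed entries. In the titled ETBF group they ran miR-21-5p, miR-31-5p, miR-95-3p, miR-21-3p and miR-31-3p, at places 2, 88, 114, 124 and 184. miR-95-3p and miR-31-3p overlapped in the titled untreated libraries, at 34.1 to 105 and 48.0 to 58.0 CPM. In the titled ETBF libraries miR-95-3p lay above the 133 to 158 CPM of miR-21-3p and the 31.6 to 47.1 CPM of miR-31-3p. The arms with a printed sequence are 21 or 22 bases long, so length hardly sets them apart. That does not cover miR-21-3p and miR-31-3p, which have no printed sequence. How evenly arms of different sequence were counted was not tested.

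The passenger arm miR-95-5p had 0 counts in 6 of 6 libraries. Against 220 reads of miR-95-3p, the exact 95% interval of the 5p share of both arms reached up to 1.66%. It reached 6.06% in the titled untreated and 2.27% in the titled ETBF libraries. By the floor of 3 counts, its level was under 8.29 to 14.6 CPM, depending on the library. The limit of 1.66% lies below the 3p share of miR-31 and above that of miR-21. The miR-95 arms were thus more unequal than those of miR-31, while their order against miR-21 was not detectable at this depth.

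Ratios between members within a library compare them with no scaling. For each read of miR-95-3p there were 2618, 878 and 2030 reads of miR-21-5p in titled untreated replicates 1, 2 and 3 and 458, 431 and 497 in titled ETBF replicates 1, 2 and 3. The titled ETBF ratios lay close together and all below the others. The log2 ratio of miR-95-3p to miR-21-5p went from -10.65 ± 0.79 to -8.84 ± 0.10 (SD, n = 3), a 3.52-fold difference. Its exact permutation p was 0.1, the smallest possible, with an adjusted p of 0.25 over 5 ratios.

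Against miR-31-5p the same was seen. There were 11.3, 4.13 and 9.79 reads of miR-31-5p for each of miR-95-3p in titled untreated replicates 1, 2 and 3 and 2.17, 2.38 and 2.23 in titled ETBF replicates 1, 2 and 3. The log2 ratio of miR-95-3p to miR-31-5p rose by 1.73 (exact permutation p = 0.1, adjusted p = 0.25), with an SD of 0.75 and 0.07 where counting alone gives 0.43 and 0.24. Without titled untreated replicate 2 these 2 differences were 2.26 and 2.16.

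The ratio of miR-21-5p to miR-31-5p varied little, with 232, 212 and 207 reads of miR-21-5p for each of miR-31-5p in titled untreated replicates 1, 2 and 3 and 211, 181 and 223 in titled ETBF replicates 1, 2 and 3. Taken the other way, mean log2 ratios of miR-31-5p to miR-21-5p were -7.76 ± 0.08 and -7.67 ± 0.15 (SD, n = 3, difference 0.09, exact permutation p = 0.5, adjusted p = 0.625). Counting alone gives an SD of 0.14 and 0.13.

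**Figure D5:**
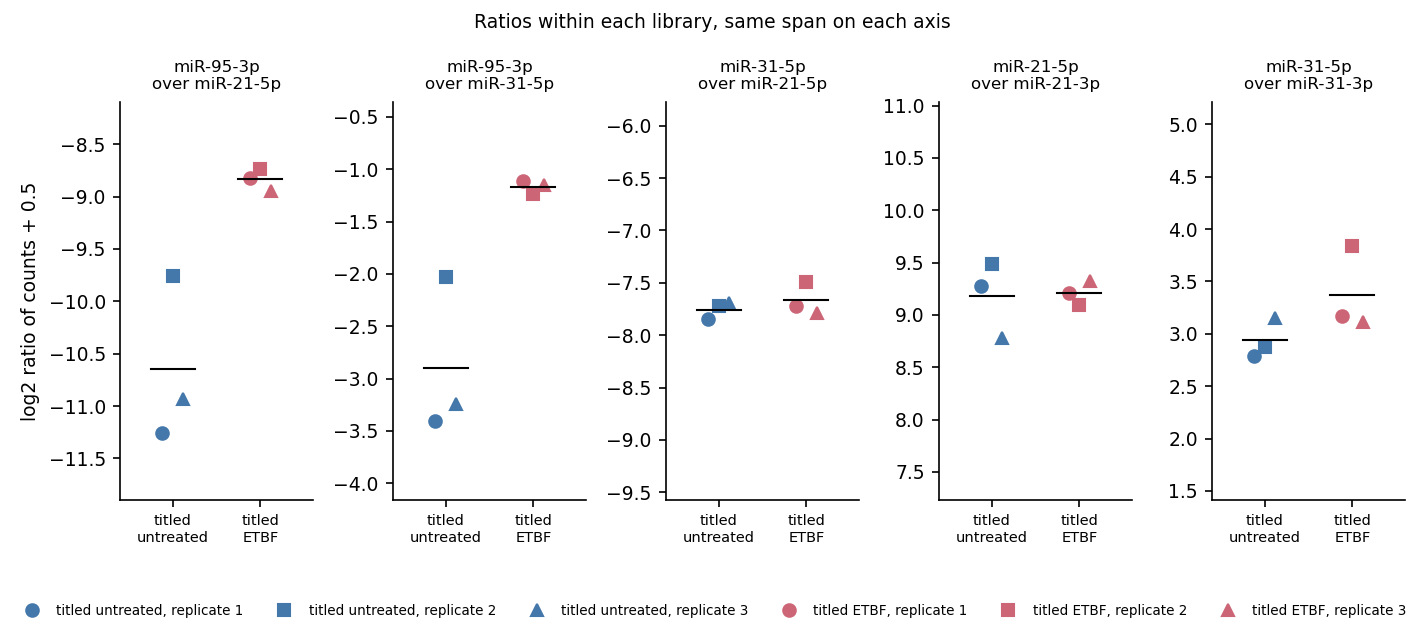
Log2 ratio of counts, with 0.5 added to each, for 3 pairs of members and 2 pairs of arms in each library, replicates by symbol and group means as lines, every axis spanning the same range. The groups are apart for both ratios of miR-95-3p and overlap for the other 3.

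By the distance between centred log2 CPM over the 6 libraries, the entries most like miR-95-3p were miR-100-5p, a repressor of mTOR (root-mean-square distance 0.38), miR-203b-3p (0.44) and miR-7-5p (0.47). Among the titled untreated libraries, replicate 2 was the highest for each of these 3, as for miR-95-3p. The distance that chose them includes that library, so this likeness is no separate observation. miR-100-5p stood at 6388, 9394 and 7084 CPM in titled untreated replicates 1, 2 and 3, and miR-203b-3p at 19.5, 35.9 and 25.6 CPM. Nearest to miR-21-5p were miR-200b-3p (0.03) and miR-200a-3p (0.05), of the family that keeps epithelial identity, and miR-20a-5p (0.05) of the miR-17-92 cluster. Nearest to miR-31-5p were miR-20a-5p (0.08), miR-92a-3p (0.09) and miR-222-3p (0.09). All values share the same 6 libraries and their scaling.

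The entries next to the members in level gave some folds near to theirs and some far from them, and the differences were not tested. Level here is the mean CPM over the 6 libraries, so neighbours can differ from a member within each group. In the titled untreated and titled ETBF groups miR-451a stood at 132 and 123 CPM, beside 61.3 and 193 CPM for miR-95-3p. The means of miR-7641 were 167001 and 4599 CPM. Beside miR-95-3p in mean CPM stood miR-451a, a red-cell miRNA, with a log2 fold change of -0.06 (SE 0.24, edgeR adjusted p = 0.862), and miR-195-5p with 0.25 (SE 0.19, adjusted p = 0.418). Beside miR-31-5p stood miR-125a-5p with -0.37 (SE 0.16, adjusted p = 0.147) and miR-548o-3p with 1.43 (SE 0.25, adjusted p = 0.00578). The neighbours of miR-21-5p were miR-148a-3p with 0.51 (SE 0.31, adjusted p = 0.290) and miR-7641 with -5.18 (SE 0.28, adjusted p = 2.39e-06). miR-21-3p, at -0.10, stood between miR-486-5p with -0.10 and miR-744-5p with 0.18, and miR-31-3p, at -0.36, between miR-382-3p with -0.35 and miR-497-5p with -0.31, none of which passed.

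Of 22 other miRNAs raised in colorectal cancer, 17 were tested: in the titled ETBF group 2 rose, 0 fell, and 15 missed the threshold. The 2 of 17 are near the 10.8% called higher among all tested entries. This list was chosen with earlier results of these data known, so the counts are a description only. The 2 were miR-96-5p, from 312 ± 44.0 to 447 ± 42.3 CPM, and miR-183-5p, from 3322 ± 425 to 4722 ± 821 CPM (SD, n = 3), each with a log2 fold change of 0.51 (SE 0.14, edgeR adjusted p = 0.0432). Both come from 1 cluster with miR-182-5p, the most abundant of the list, which had 0.44 (SE 0.15, adjusted p = 0.0757). The median log2 fold change of the 17 was 0.09, against -0.03 over all tested entries. No other member of the list reached the 1.54 of miR-95-3p, and the difference between them was not tested.

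Of 22 miRNAs described as suppressing colorectal tumours, 17 were tested, with 4 higher, 1 lower and 12 not passing, and a median of -0.09. Among all tested entries 10.8% were higher and 3.59% lower. The list was chosen with earlier results of these data known, so setting its counts beside these shares tests nothing. The 4 were miR-149 (2.59, SE 0.23, an entry with no arm in its name), miR-7-5p (2.14, SE 0.12), miR-100-5p (1.81, SE 0.19) and miR-139-5p (1.48, SE 0.28), and the lower one was miR-375 (-0.61, SE 0.17), with edgeR adjusted p of 8.18e-05, 2.62e-06, 0.000259, 0.00885 and 0.0432.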

How the data were processed

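The authors deposited 1 table of counts per library, whole numbers for each mature miRNA and not normalised. FastQC, Trimmomatic and featureCounts are named with build GRCh37.p5, per the submitters' processing notes. Their versions, the aligner, the annotation and the handling of reads that fit several places were not given in the sources used here. miR-199a-3p, with several loci, held 1374 counts where miR-199b-3p held 687 in titled untreated replicate 1, so a miRNA with more than 1 gene, miR-7-5p for example, may be counted at a raised level in either group. Each library took 100 ng of total RNA, per the labels' protocols. Nothing in the labels ties replicates to separate cultures, and p-values then measure only the spread between these libraries, which can be technical.

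Entries were kept by filterByExpr (minimum count 10; 195 of 2575 kept). After TMM scaling (factors from 0.776 to 1.19), edgeR's quasi-likelihood test was run two-sided, adjusted by Benjamini-Hochberg over all tested entries, at a threshold of 0.05. SEs divide the absolute log2 fold change by the root of F, and 95% intervals use the degrees of freedom of the test. Shares and ratios were compared by exact permutation of the libraries. No library was treated as deposited more than once (chi-square over degrees of freedom of at least 10.04 for each pair). Named entries are every arm, the 3 nearest in pattern, neighbours in level, seed mates, and of each list the called and the most abundant. The members and lists were chosen with earlier results of these data known. Alternatives were other scalings and filters, DESeq2's Wald test, limma-voom, a replicate block, other totals for shares, 1 in place of 0.5 counts added in ratios, and each replicate left out. Scripts were tested on simulated data. Versions were DESeq2 1.42.0, limma 3.58.1, edgeR 4.0.16 and R 4.3.3.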

Additional observations from a re-analysis of the deposited data

How the results depend on the processing

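miR-95-3p passed in all 17 settings, with log2 fold changes from 1.27 to 2.23, the ends being those without titled untreated replicates 3 and 2. No other arm passed in any setting. Signs were not stable for arms near 0. miR-21-5p had 0.0325 with upper-quartile scaling and 0.0161 without the entries overlapping structural RNAs, and -0.0911 to 0.0149 with single replicates left out. miR-31-5p had -0.00455 with library size only, and -0.000804 to 0.12 with single replicates left out; miR-21-3p had -0.26 to 0.10. The log2 ratio of the miR-21 arms differed by -0.18 to 0.18 with single replicates left out. Leaving out replicates moved the difference in share of counts from -1.59 to 0.559 percentage points for miR-21-5p, from -0.00333 to 0.00134 for miR-21-3p and from -0.00382 to 0.00716 for miR-31-5p, which had -0.0107 without the entries overlapping structural RNAs and -0.0172 also without miR-148a-3p. The cause of these moves was not tested.

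The 28 calls among 195 tested entries became 51 among 717 with no low-count filter, a smaller share. With single replicates left out there were 17 to 59 calls among 202 to 211 tested. The lowest count, 17, was reached both without replicate 3 of the titled untreated and without replicate 3 of the titled ETBF group, and the highest without titled ETBF replicate 1. The split of 21 higher and 7 lower became 30 and 4 without the entries overlapping structural RNAs and 38 and 21 without titled ETBF replicate 1. Leaving out miR-148a-3p was chosen after the data were seen. With the replicate number as a block there were 38 calls, 26 of them among the 28, and miR-95-3p had a log2 fold change of 1.62 (edgeR, adjusted p = 0.00582); the block changed no call of a member. Deviations of same-numbered libraries correlated at 0.153, 0.0792 and 0.00853 over 195 entries, so the numbers were not taken to pair the libraries, and not every library correlated best with its own number. Depth limits miR-31-3p, with 7 to 21 counts a library, and miR-95-5p, with 0. It also limits miR-95-3p in titled untreated replicates 1, 2 and 3, with 7, 38 and 14 counts.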
